A study of Mus musculus with 4 samples.

Results

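Hippocampal gene expression at 18 months was set against that at 4 months in mice carrying a heterozygous knockout of Rp58 (labelled Rp58 hetero-KO, here hetero-KO). Each age was represented by 1 Agilent one-colour array, on which a mixture of 3 independent total RNA samples had been hybridised. The array of wild-type (WT) hippocampus at 4 months and that at 18 months, pooled in the same way, are given beside it. The older groups carry an age label of 18 months, although their descriptions allow younger animals; the deleted allele, the strain and the sex of the mice are not given in the sources used here. A gene entered the comparison when its probe passed the scanner software's test for a signal well above background on both hetero-KO arrays. This held for 27367 of 36994 genes (74.0%), 16780 of them with an official symbol. A further 1170 genes were well above background at 4 months alone, 584 at 18 months alone and 7873 on neither array. A level below is the processed signal of a probe divided by the 75th percentile of its array, and an age difference is the log2 level at 18 months minus that at 4 months. With 1 array per group no difference has a replicate check, no test was made, and "higher" and "lower" describe these pools and not the populations of mice.

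Rp58, whose current symbol is Zbtb18, encodes a zinc finger protein with a BTB domain that represses transcription and is needed for the birth and layering of cortical and hippocampal neurons. In the ageing mouse hippocampus, microglia take up a primed or disease-associated state, astrocytes raise their intermediate filaments and acute-phase proteins, complement components accumulate, and the generation of new granule neurons in the dentate gyrus declines. Complement C1q and the later components C4 and C3 tag cells and synapses for removal by microglia, which is why these genes are widely used as markers of brain ageing.

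The targeted gene was read first. Zbtb18, measured by a probe at chr1:179380753-179380812 of mouse build mm9, had a level of 15.2 at 4 months and 21.3 at 18 months in hetero-KO, and of 17.4 and 18.7 in WT. Its age difference was 0.49 ± 0.20 in hetero-KO and 0.11 in WT, where the error is the scanner software's estimate for a spot pair and holds no spread between mice. Because the deleted stretch is not given, this probe checks nothing about the genotype labels. In the authors' deposited table of values, described below, the age difference of Zbtb18 in hetero-KO was −0.40, the opposite sign.

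The 75th percentile of the signal was 2124 at 4 months and 1720 at 18 months in hetero-KO, with 79.5% and 77.9% of spots well above background. Over the 299 of 300 probes printed in 10 copies that were well above background, the median SD among copies was 0.03 on the log2 scale on each hetero-KO array. The authors' deposited table of values, kept as an alternative only, equalled the scanner files at 4 months, but its hetero-KO column of 18 months agreed within 1% for only 2.71% of spots (r = 0.981 of log2 values) and matched none of the 4 scanner files. There, 16 of 21 gene lists with a median difference beyond 0.2, and 40 of 70 named genes at least 2-fold apart, take the opposite sign. The lists are complement, both microglial lists, border macrophage, MHC classes I and II, reactive astrocyte, chemokine, lymphocyte, glucocorticoid, lysosome, ribosome, meningeal, progenitor, CA2 and CA3. Which of the files belongs to the 18-month pool cannot be settled here.

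The hetero-KO pools also differed in genes of the sex chromosomes. Eif2s3y, a Y-linked translation factor, was not well above background at 4 months and had a level of 1.32 at 18 months, at least 198-fold higher, while WT went from 0.669 to 1.29. Uty and Ddx3y, also Y-linked, were at least 57.1-fold and 33.7-fold higher at 18 months in hetero-KO, and 2.98-fold and 2.27-fold higher in WT. Xist, the noncoding RNA that coats the inactive X in female cells, had a level of 0.229 at 4 months in hetero-KO and was at least 27.7-fold lower at 18 months. In WT its level was 0.163 at 4 months, beside Y-linked transcripts, and it was at least 21.6-fold lower at 18 months. Of 10 Y-linked probes well above background at 18 months, 9 were not so at 4 months, the exception being 1 probe of Kdm5d. By these genes the younger hetero-KO pool looks female, the younger WT pool mixed and both older pools male. Age and sex makeup therefore cannot be told apart in any difference below, the WT differences included.

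Defining markers of the hippocampal subfields were read in hetero-KO beside the tissue label. Prox1, the transcription factor of dentate granule cells, had levels of 1.90 at 4 months and 2.03 at 18 months. Wfs1, a marker of the CA1 field, had levels of 5.15 and 6.13, and Rgs14, a marker of CA2, of 6.98 and 8.75. Bok, a marker of CA3, had levels of 7.19 and 11. Each of these markers was well above background on both arrays, with levels above the array's 75th percentile. Of all spots, 79.5% at 4 months and 77.9% at 18 months were well above background, so passing that bar does little to check the label. These levels do not measure tissue from neighbouring regions.

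Among the 27367 genes, 306 (1.12%) were at least 2-fold higher at 18 months in hetero-KO and 300 (1.10%) at least 2-fold lower. The median age difference was 0.05, its SD over genes 0.36, and 60.1% of genes were higher at 18 months. Dim probes carried many of these calls. Of the 16120 genes with a level of at least 0.2 at either age, 1.03% were at least 2-fold apart (76 higher, 90 lower), against 3.91% of the genes below that level. Genes 4-fold or more apart numbered 52 higher and 61 lower. Of the genes 2-fold apart at a level of 0.2 or more, 63 were read by several probes, and for 56 of these all probes had the same sign. In the plot of levels at both ages, many of the coloured genes above the diagonal are on the complement, disease-associated microglia or neutrophil and monocyte list, and many of those below it are on the thalamic or striatal list.

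**Figure D1:**
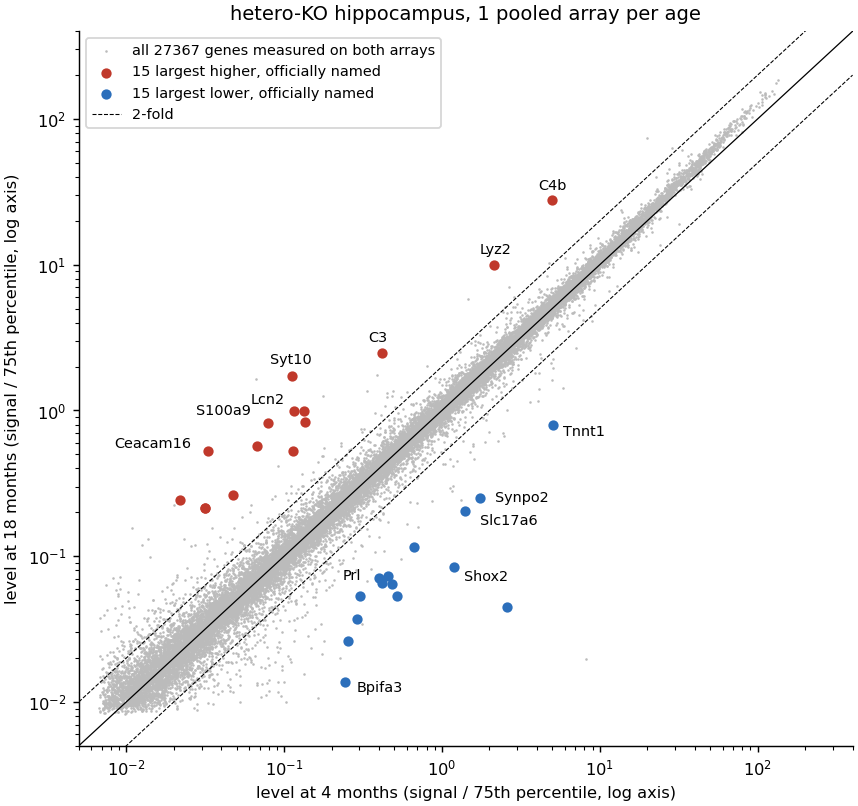
Level of each gene at 18 months (vertical, log axis) against 4 months (horizontal, log axis) in hetero-KO hippocampus, as signal over the array's 75th percentile, with 1 pooled array per age. Grey points are the 27367 genes measured on both arrays, coloured points the 15 largest age differences in each direction among officially named genes at a level of 0.2 or more, and dashed lines mark 2-fold; C4b went from 5.01 to 27.6 and Shox2 from 1.18 to 0.0846.

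Complement genes were mostly higher at 18 months in hetero-KO. Of 18 members measured, 15 were higher and 5 at least 2-fold higher, none was 2-fold lower, and the median age difference was 0.80, beside 0.05 over all genes and 0.37 for the same list in WT. In bulk RNA, a change in the number of cells of a type and a change in RNA per cell cannot be told apart, here and below. C4b, a complement component cleaved after C1q activation, had levels of 5.01 at 4 months and 27.6 at 18 months in hetero-KO, and of 4.96 and 21.2 in WT. Both older arrays were high, that of hetero-KO more so, and the age difference was 2.46 ± 0.20 in hetero-KO and 2.10 in WT. C4a, a near-identical copy whose probe may share transcripts with C4b, differed by 2.62 (levels of 0.135 and 0.830). C3, on which all complement pathways converge, had levels of 0.419 and 2.49 in hetero-KO and of 0.555 and 2.09 in WT. Its younger hetero-KO array was the lowest of the 4 and its older hetero-KO array the highest, with age differences of 2.57 and 1.91. The other probe of C3 gave a smaller difference, 1.36.

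The genes of the initiating C1q complex, made in the brain by microglia, were higher to a similar extent. C1qa went from 1.63 to 2.99, C1qb from 1.24 to 2.25 and C1qc from 2.99 to 5.38 in hetero-KO, with age differences of 0.87, 0.86 and 0.85. In WT the same genes differed by 0.52, 0.65 and 0.55. Cfb, the protease of the alternative pathway, differed by 1.48 in hetero-KO (levels of 0.0199 and 0.0552) and 0.59 in WT. The receptors C3ar1 and C5ar1, which sense the cleaved fragments of C3 and C5, differed by 0.73 and 1.08 from low levels. The 3 lower members were all less than 2-fold apart. Cfp, or properdin, which stabilises the alternative pathway convertase, differed by −0.31, Cd55, which speeds its decay, by −0.29 and Cd59a, an inhibitor of the membrane attack complex, by −0.05 (0.55 in WT).

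Genes of the disease-associated state of microglia, a lipid-handling and phagocytic programme that depends on the receptor Trem2, were higher for 26 of 27 members measured. At least 2-fold higher were 11 members and none was 2-fold lower; the median was 0.47 in hetero-KO and 0.42 in WT. Clec7a, the receptor Dectin-1, had levels of 0.0672 at 4 months and 0.567 at 18 months in hetero-KO, and of 0.0836 and 0.357 in WT. The older hetero-KO array stood highest, with an age difference of 3.08 ± 0.21, although the other probe of Clec7a gave 0.76. Itgax, the integrin CD11c, went from 0.0313 to 0.216 (2.78; 1.94 in WT), and Cst7, a cysteine protease inhibitor, from 0.0315 to 0.213 (2.76; 1.83 in WT). Both were close between genotypes at 4 months and higher in hetero-KO at 18 months. The other probe of Itgax gave a smaller age difference in hetero-KO, 0.97. Lilrb4a, an inhibitory receptor, went from 0.0477 to 0.264 (2.47) in hetero-KO and from 0.0762 to 0.146 (0.94) in WT. Gpnmb, a lysosomal glycoprotein, differed by 1.78, and Apoe, the lipid carrier, by 0.38 (levels of 62.4 and 81.0). The exception was Timp2, a metalloproteinase inhibitor, at −0.35.

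Homeostatic microglial genes shifted the same way by less. Of 22 members measured, 21 were higher at 18 months and 1, Gpr84, at least 2-fold; the median was 0.42 in hetero-KO and 0.36 in WT. P2ry12, the purinergic receptor of resting microglia, had levels of 0.953 and 1.07 in hetero-KO (0.17), and Tmem119, a microglia-specific membrane protein, of 1.19 and 1.65 (0.47). Trem2 and its adaptor Tyrobp differed by 0.95 and 0.85. The summed level of the 22 markers was 113 at 4 months and 147 at 18 months in hetero-KO, and 116 and 134 in WT, so the marker sum was higher on both older arrays. The part of this shift in the differences of single microglial genes was not tested.

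Lysosomal genes were higher for 33 of 34 members, with a median of 0.23 in hetero-KO and 0.21 in WT. Grn, which encodes progranulin, a lysosomal regulator, had levels of 19.9 at 4 months and 73.9 at 18 months in hetero-KO, and of 25.2 and 64.9 in WT. Its difference of 1.89 was the only one of 2-fold or more in the list, and its 3 probes ranged from 0.32 to 1.89. The microglial proteases Ctss and Ctsz differed by 0.74 and 0.62. Lyz2, the lysozyme of macrophages and a close copy of Lyz1, went from 2.15 to 9.95 in hetero-KO and from 2.62 to 5.54 in WT, differences of 2.21 and 1.08.

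**Figure D2:**
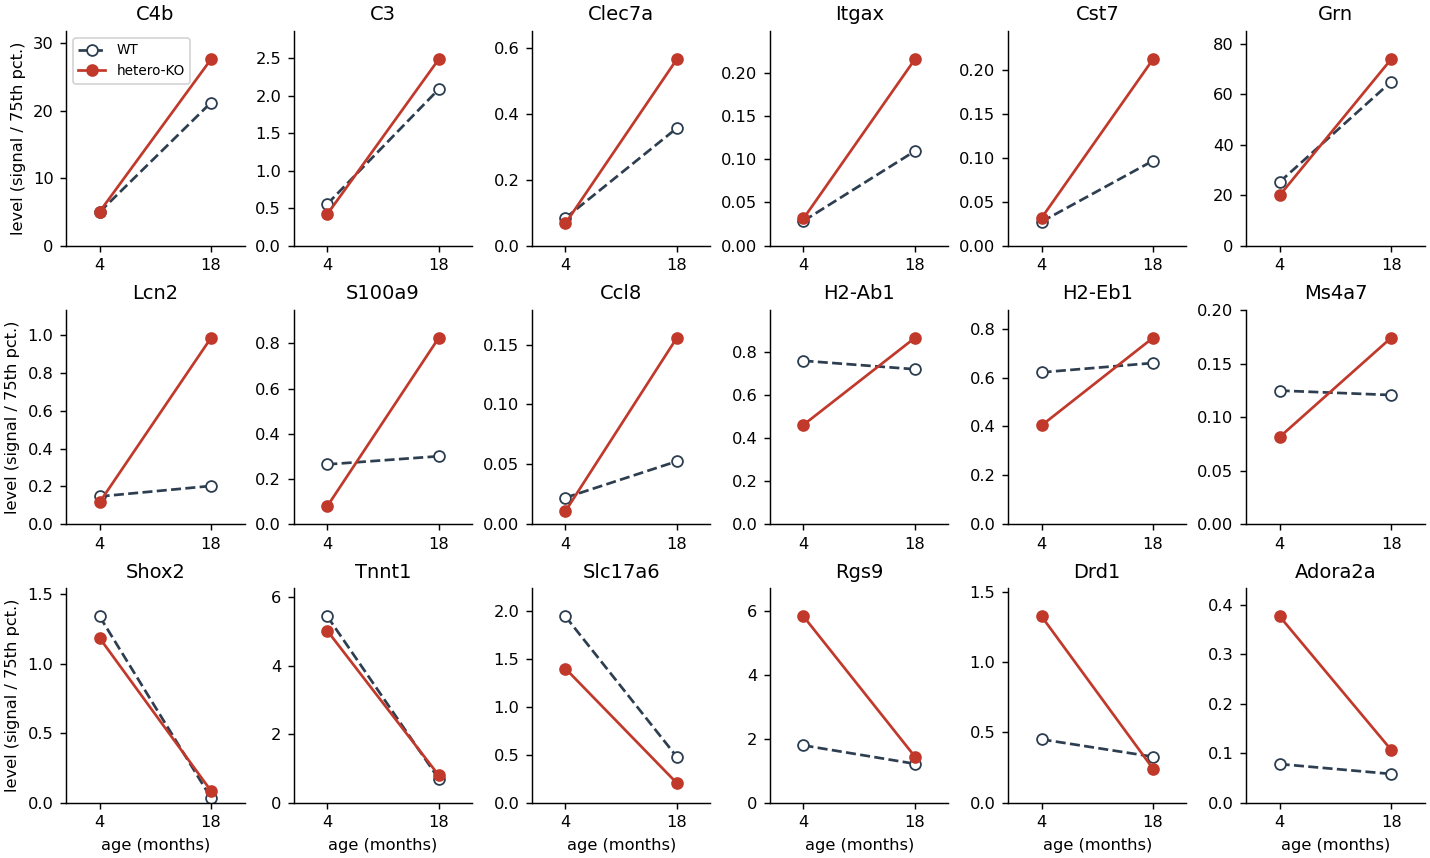
Level (signal over the 75th percentile, linear axis from 0) against age in months for 18 genes, with open circles and dashed lines for WT and filled circles and solid lines for hetero-KO; each point is 1 pooled array, and no error bar is drawn because no group has a replicate. C4b, C3, Clec7a, Itgax, Cst7 and Grn are high on both older arrays, Lcn2 and S100a9 on the older hetero-KO array, Shox2, Tnnt1 and Slc17a6 on both younger arrays, and Rgs9, Drd1 and Adora2a on the younger hetero-KO array.

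Major histocompatibility complex (MHC) class II genes, which present extracellular peptides to CD4 T cells, were higher in hetero-KO for all 9 members measured, with none at 2-fold. The median was 0.62 in hetero-KO and −0.08 in WT. H2-Ab1, a chain of the I-A molecule, had levels of 0.461 at 4 months and 0.865 at 18 months in hetero-KO, and of 0.758 and 0.719 in WT. H2-Eb1, a chain of the I-E molecule, had levels of 0.404 and 0.763 in hetero-KO and of 0.622 and 0.660 in WT. For both genes the younger hetero-KO array was the lowest of the 4, and the age differences were 0.91 and 0.92 in hetero-KO against −0.08 and 0.09 in WT. H2-Aa differed by 0.65 and Cd74, the invariant chain that guides class II molecules to the endosome, by 0.60, where WT had −0.21 and −0.24. H2-DMb1 and H2-Oa, which edit the loading of peptides, differed by 0.62 and 0.82 in hetero-KO and by 0.67 and 0.60 in WT. Ciita, the co-activator of the family, had a difference of 0.05 from levels of 0.0578 and 0.0599.

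Class II genes carry a shared promoter module that ends in a Y box, the site of the factor NF-Y. Stretches of these promoters are shown as background to the list, of which 9 of 9 members were higher in hetero-KO and 4 of 9 in WT. The letters TGATTGG were searched on both strands of RefSeq promoter windows of assembly GRCm38.p6, each from 250 bases before to 50 bases after the annotated start. They were found in 7 of the 8 class II genes of the list with a window (87.5%), in 9 of 13 class I genes, in 0 of 12 complement genes and in 2431 of 27025 genes (9.0%) over the whole table. The match is a description of the letters and not of binding. Each stretch has 92 bases, runs 5′ to 3′ on the strand of the gene, and has the matched letters in capitals.
H2-Aa, chr17:34287852-34287943, minus strand: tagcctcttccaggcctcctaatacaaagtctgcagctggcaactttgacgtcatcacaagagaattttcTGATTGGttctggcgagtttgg
H2-Eb1, chr17:34305736-34305827, plus strand: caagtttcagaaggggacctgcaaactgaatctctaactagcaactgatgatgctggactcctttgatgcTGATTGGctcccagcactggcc
H2-DMb1, chr17:34153058-34153149, plus strand: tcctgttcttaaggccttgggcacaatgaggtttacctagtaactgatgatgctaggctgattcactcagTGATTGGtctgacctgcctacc
H2-Oa, chr17:34092264-34092355, plus strand: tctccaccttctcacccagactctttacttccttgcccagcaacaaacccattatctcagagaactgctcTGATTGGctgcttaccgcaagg
The 4 genes shown differed by 0.65, 0.92, 0.62 and 0.82 between ages in hetero-KO. H2-DMb1 and H2-Oa were higher with age in both genotypes and H2-Aa in hetero-KO alone. The other class II genes with the letters are not shown, and any link between the letters and the age differences was not tested.

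MHC class I genes and the genes that supply their peptides were higher for 14 of 15 members, with a median of 0.44 in hetero-KO and 0.24 in WT. H2-K1, a classical class I heavy chain, had levels of 4.65 and 6.83 in hetero-KO and of 5.04 and 6.33 in WT. Psmb9 and Psmb8, catalytic subunits of the immunoproteasome, differed by 0.63 and 0.58, and the peptide transporter Tap1 by 0.58. No member reached 2-fold. Class I genes are a multigene family, and reads of near-identical members by a single probe cannot be separated. Of the interferon-responsive genes 19 of 33 were higher, with a median of 0.08 in hetero-KO against 0.20 in WT. Over all genes in hetero-KO 60.1% were higher, with a median of 0.05, so this list lay near the genes as a whole. Mx1, an antiviral GTPase and the list's 2-fold member, differed by 1.03 in hetero-KO, from dim levels of 0.0138 and 0.0283. In WT it was not well above background at 4 months, so no WT difference is given. Cxcl10, a T cell attractant, differed by 0.70 in hetero-KO and 1.32 in WT, and Gbp2, a guanylate-binding protein, by 0.52 and 0.15. Ifi44 and Usp18 differed by −0.68 and −0.34 in hetero-KO and by 0.44 and 0.39 in WT.

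Genes of reactive astrocytes were higher for 26 of 30 members measured in hetero-KO, 8 of them at least 2-fold and none 2-fold lower. The median was 0.60 in hetero-KO and 0.19 in WT. Lcn2, an iron-siderophore carrier secreted by reactive astrocytes and by neutrophils, had levels of 0.116 at 4 months and 0.987 at 18 months in hetero-KO, and of 0.147 and 0.202 in WT. Only the older hetero-KO array was high; the age difference was 3.09 ± 0.20, beside 0.46 in WT. Serpina3n, a protease inhibitor of the acute phase, went from 0.447 to 1.31 (1.55), and Timp1, a metalloproteinase inhibitor encoded on the X chromosome, from 0.173 to 0.489 (1.5). The intermediate filament genes Gfap and Vim went from 4.60 to 8.43 (0.87) and from 2.86 to 6.01 (1.07) in hetero-KO, and differed by 0.50 and 0.34 in WT. Osmr and Stat3, a cytokine receptor and its transcription factor, differed by 0.78 and 0.40. General astrocyte markers shifted little, with a median of 0.10 over 18 members and none at 2-fold.

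Transcripts of neutrophils and blood were higher on the older hetero-KO array as well. S100a9, a subunit of calprotectin in neutrophils, had levels of 0.0794 at 4 months and 0.825 at 18 months in hetero-KO, and of 0.265 and 0.301 in WT. Its partner S100a8 had levels of 0.0219 and 0.245 in hetero-KO and of 0.0781 and 0.0998 in WT. For both genes the younger hetero-KO array was lowest and the older highest, with differences of 3.38 and 3.48 against 0.18 and 0.35 in WT. Ngp and Retnlg, both granule or secreted proteins of neutrophils, cleared background in hetero-KO at 18 months alone, at least 2.62-fold and 3.59-fold higher. The defining genes Mpo, Elane and Ly6g differed by 0.36, −0.02 and 0.54. Over the 10 members measured, 8 were higher, with a median of 0.38, and the summed level was 9.38 and 12.6 in hetero-KO and 10.1 and 9.84 in WT.

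Red blood cell genes were higher for all 10 members measured, with a median of 0.60 in hetero-KO and 0.10 in WT. Hba-a1, an alpha-globin gene with a near-identical copy in Hba-a2, had levels of 27.6 and 45.5 in hetero-KO and of 32.2 and 35.9 in WT, and Alas2, which starts haem synthesis in erythroid cells, of 0.235 and 0.360. The summed level of this list was 103 and 147 in hetero-KO and 111 and 123 in WT, highest on the older hetero-KO array. The part of blood in the differences of S100a8, S100a9, Lcn2 and Lrg1 was not tested. Lrg1, an acute-phase glycoprotein of neutrophils and endothelium, went from 0.114 to 0.526 in hetero-KO (2.20) and from 0.136 to 0.181 in WT (0.42).

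Markers of macrophages at the borders of the brain were higher in hetero-KO for 10 of 12 members, with a median of 0.35, and lower in WT for 11 of 12, with a median of −0.31. Ms4a7, a membrane protein of border macrophages, had levels of 0.0815 and 0.174 in hetero-KO and of 0.125 and 0.121 in WT. Cd163, the haemoglobin scavenger receptor, differed by 0.50 and Mrc1, the mannose receptor, by 0.26, where WT had −0.26 and −1.13. Meningeal fibroblast markers had the same opposition: 16 of 21 were higher in hetero-KO (median 0.26) and 18 of 21 lower in WT (median −0.38). The summed level of border macrophage markers was 1.77 and 2.45 in hetero-KO and 2.10 and 1.70 in WT, and that of meningeal markers 79.2 and 103 against 92.1 and 77.6. All 12 border macrophage markers and the 21 meningeal markers were well above background on all 4 arrays. The summed level of class II genes was 1.91 and 3.05 in hetero-KO and 2.65 and 2.78 in WT, and the part of border cells in these values was not tested. The opposition between genotypes has no test, since the 4 arrays leave no residual degree of freedom.

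Chemokine genes, which recruit leukocytes, were higher for 23 of 27 members measured, 8 of them at least 2-fold, with a median of 0.45 in hetero-KO and 0.17 in WT. Ccl8, a ligand for monocyte receptors, had the largest difference, 3.85 ± 0.30, from levels of 0.0108 and 0.156 in hetero-KO, beside 0.0221 and 0.0525 in WT. Ccl3 and Ccl4, ligands that microglia make, went from 0.0233 to 0.132 and from 0.0352 to 0.155, differences of 2.50 and 2.14 against 1.94 and 1.39 in WT. Cxcl1, which attracts neutrophils, differed by 2.47 in hetero-KO (levels of 0.0103 and 0.0567) and −0.16 in WT, and Ccl2 by 1.69 and 0.61. These levels are far below the 75th percentile, and for Ccl8 and Cxcl1 the 4-month level is close to the lowest of 0.00668 that was well above background on that array. Cxcl13, a B cell attractant, was well above background at 18 months alone, at least 2.57-fold higher, and Ccr6, a chemokine receptor of lymphocytes, at 4 months alone, at least 4.11-fold lower at 18 months. Of the 4 lower members, Ccl28, Ccl27a and Ccl25 differed by −0.43, −0.10 and −0.03. The member at least 2-fold lower was Ccl21a, a lymph node chemokine, with levels of 2.0 and 0.711 in hetero-KO (−1.49) and of 1.75 and 1.79 in WT.

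Glucocorticoid-responsive genes were higher for 21 of 22 members, 3 at least 2-fold, with a median of 0.40 in hetero-KO and 0.25 in WT. Plin4, a lipid droplet protein, had levels of 0.336 at 4 months and 1.37 at 18 months in hetero-KO, and of 0.369 and 0.946 in WT. Hif3a, a hypoxia-inducible factor subunit, went from 0.310 to 0.709 in hetero-KO and from 0.268 to 0.546 in WT. Both genes were high on both older arrays, with differences of 2.03 and 1.19 in hetero-KO against 1.36 and 1.02. Fkbp5, a chaperone of the glucocorticoid receptor and also a member of the reactive astrocyte list, differed by 0.62 and 0.41. The third gene at 2-fold was Lcn2, described above, and the exception was Dusp1, a phosphatase that is also an immediate early gene, at −0.54.

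Among single genes outside these lists, Ceacam16, an adhesion protein known from the inner ear, had levels of 0.0328 at 4 months and 0.526 at 18 months in hetero-KO, and of 0.119 and 0.360 in WT. Its age difference of 4.00 ± 0.22 (16.0-fold) was the largest higher difference among officially named genes at a level of 0.2 or more, with 1.60 in WT and 1.66 by its other probe. Syt10, a calcium sensor of the synaptotagmin family, is on the synaptic vesicle list given below. It had levels of 0.112 and 1.72 in hetero-KO and of 0.204 and 0.858 in WT. Its difference of 3.94 comes from 1 probe, the other giving 0.29. The probe that represents Eif2s3x, an X-linked gene with a Y-linked copy, went from 0.134 to 0.987 in hetero-KO while a further probe went from 0.134 to 0.102, so the probes disagree. The first of them followed the Y-linked copy over the 4 arrays, with levels of 0.640 and 1.03 in WT. Avpr1b, a vasopressin receptor of the CA2 field and the pituitary, went from 0.0618 to 0.225 (1.87) in hetero-KO, against 0.0981 and 0.101 in WT.

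The lower genes were led by markers of thalamus and habenula, which lie next to the hippocampus. Of 30 members measured, 25 were lower at 18 months in hetero-KO and 16 at least 2-fold lower, none 2-fold higher; the median was −1.16 in hetero-KO and −1.41 in WT. Shox2, a homeobox factor of thalamic neurons, had levels of 1.18 at 4 months and 0.0846 at 18 months in hetero-KO, and of 1.34 and 0.0345 in WT. Tnnt1, a troponin gene used as a thalamic marker, had levels of 5.02 and 0.797 in hetero-KO and of 5.44 and 0.696 in WT. Both younger arrays were high and both older arrays low, with differences of −3.81 and −2.65 in hetero-KO and −5.28 and −2.97 in WT. Slc17a6, the vesicular glutamate transporter of thalamus and other subcortical regions, went from 1.40 to 0.205 (−2.78). Vipr2, a receptor for vasoactive intestinal peptide, went from 0.481 to 0.0643 (−2.90; −0.35 by its other probe).

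Tcf7l2, the Wnt-pathway factor that specifies thalamic neurons, went from 2.25 to 0.621 (−1.86), and Synpo2, an actin-binding protein, from 1.75 to 0.250 (−2.81), with a range of −2.81 to 0.77 over its 3 probes. Gbx2, a homeobox factor of the thalamus, was well above background at 4 months alone, at least 5.06-fold lower at 18 months. Some habenular genes differed little in hetero-KO: Tac2, a tachykinin of the medial habenula, had levels of 0.888 and 0.853 in hetero-KO and of 2.18 and 0.547 in WT, and Pou4f1 of 5.33 and 5.93. The summed level of the 30 markers was 63.8 at 4 months and 34.9 at 18 months in hetero-KO, and 77.3 and 38.0 in WT. Gata3, Nexn and Opn3, among the 15 largest lower differences at −2.62, −2.52 and −3.26, were lower in WT by similar amounts (−2.47, −2.75 and −2.97). The share of neighbouring tissue in each dissection was not tested.

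Markers of the striatum were lower at 18 months in hetero-KO for all 25 members measured, 12 of them at least 2-fold, with a median of −0.98; in WT 19 of 26 were lower, with a median of −0.32. Rgs9, a G protein regulator of striatal neurons, had levels of 5.82 at 4 months and 1.44 at 18 months in hetero-KO, and of 1.79 and 1.21 in WT. Its difference was −2.02 ± 0.20, with a range of −2.05 to −0.55 over its 5 probes. Drd1, the D1 dopamine receptor, had levels of 1.32 and 0.242 in hetero-KO and of 0.450 and 0.327 in WT. Adora2a, an adenosine receptor, had levels of 0.376 and 0.107 in hetero-KO and of 0.0780 and 0.0581 in WT. For these 3 genes the younger hetero-KO array was the highest of the 4. Penk, the enkephalin precursor, differed by −0.82 and Ppp1r1b, the dopamine-responsive DARPP-32, by −0.98.

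The summed level of the 25 striatal markers was 97.1 at 4 months and 57.3 at 18 months in hetero-KO and 54.1 on each WT array. Sh3rf2, also a member of the list, differed by −3.93 in hetero-KO (−1.55 by its other probe) and −0.44 in WT. Ido1, a further member, differed by −2.96 in hetero-KO and −0.86 in WT. Slc35d3, a transporter-like protein outside the list, followed the same pattern, with levels of 0.301 and 0.0533 in hetero-KO and of 0.0945 and 0.0822 in WT. Isl1, a homeobox factor of striatal neurons, was at least 9.97-fold lower at 18 months. Six3, shared by the striatal and thalamic lists, differed by −2.68 in hetero-KO and −1.26 in WT. Here too the makeup of the dissected tissue was not tested as a source of the difference.

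**Figure D3:**
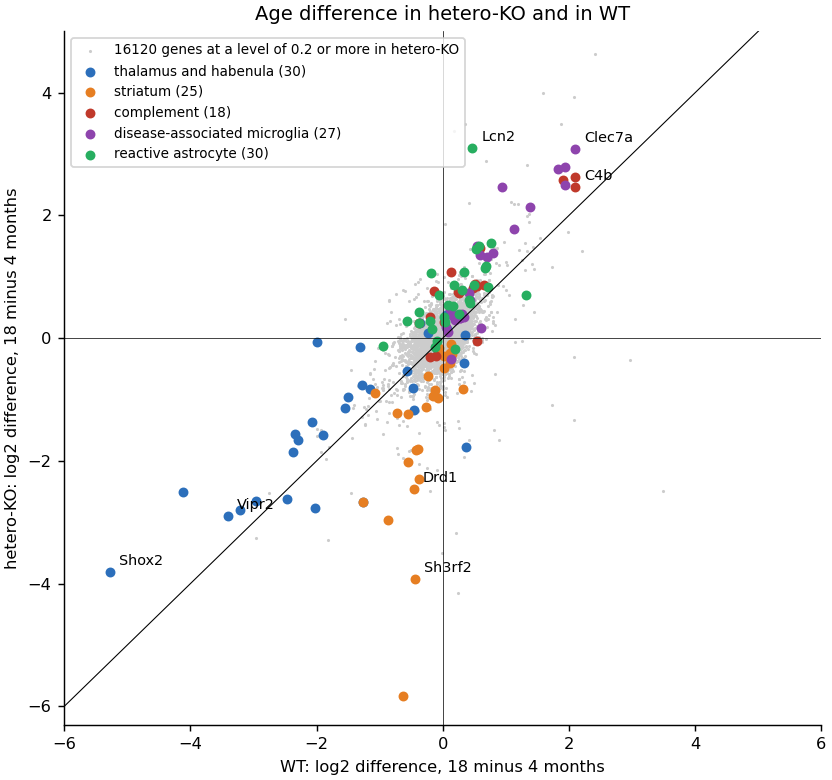
Log2 age difference (18 minus 4 months) in hetero-KO (vertical) against that in WT (horizontal) for 16120 genes at a level of 0.2 or more in hetero-KO (grey), with measured members of 5 lists at any level in colour; the diagonal marks equal differences. Thalamic genes lie low in both genotypes (Shox2 at −3.81 and −5.28), striatal genes low in hetero-KO (Rgs9 at −2.02 and −0.56), and C4b high in both (2.46 and 2.10).

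Hormone genes of the hypothalamus and pituitary gave mixed values, with 10 of 22 members higher and a median of −0.14 in hetero-KO and 0.44 in WT. Trh, thyrotropin-releasing hormone, had levels of 0.520 and 0.0530 in hetero-KO and of 0.405 and 0.115 in WT, lower on both older arrays. Prl, the pituitary hormone prolactin, had levels of 0.398 and 0.0709 in hetero-KO and of 0.0200 and 0.226 in WT, differences of −2.49 and 3.50 with opposite signs. Ecel1 and Magel2, a peptidase and a gene of the Prader-Willi region, differed by −1.94 and −1.67 in hetero-KO and by 0.34 and 0.41 in WT. The other probe of Ecel1 gave −0.27 in hetero-KO. Avp, vasopressin, and Dlk1, a Notch-like ligand of endocrine cells, were higher with age in both genotypes, by 1.42 and 1.63 in hetero-KO and 2.20 and 1.54 in WT. Bpifa3, outside every list, went from 0.245 to 0.0138 (−4.15) in hetero-KO, and had levels of 0.0121 and 0.0142 in WT.

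Markers of progenitors and immature neurons, the source of new granule cells, were lower for 19 of 22 members in hetero-KO, 2 of them at least 2-fold, with a median of −0.27; the WT median was −0.12. Dcx, doublecortin, a microtubule protein of migrating young neurons, had levels of 0.332 at 4 months and 0.185 at 18 months in hetero-KO, and of 0.281 and 0.202 in WT. Sox11, a factor of newborn neurons, had levels of 0.653 and 0.432 in hetero-KO and of 0.533 and 0.467 in WT. Both genes were lower on both older arrays, with differences of −0.84 and −0.60 in hetero-KO and −0.47 and −0.19 in WT. The 4 probes of Dcx ranged from −0.84 to −0.20 in hetero-KO. Igfbpl1, expressed in neuronal progenitors, had levels of 0.116 and 0.0263 in hetero-KO and of 0.108 and 0.174 in WT. Calb2, a calcium-binding protein of immature granule cells that also marks mossy cells and thalamus, had levels of 0.131 and 0.0380 against 0.152 and 0.195. These last 2 genes were low on the older hetero-KO array alone, with differences of −2.15 and −1.78. Their other probes gave −0.89 and −1.58.

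Cell division genes were lower for 16 of 24 members, with a median of −0.26 in hetero-KO and −0.31 in WT. Top2a, the topoisomerase of dividing cells, had levels of 0.0749 and 0.0259 in hetero-KO and of 0.0528 and 0.0185 in WT, differences of −1.53 and −1.51. Mki67, the Ki-67 antigen, had levels of 0.168 and 0.107 in hetero-KO and of 0.139 and 0.0861 in WT, lower by similar amounts in both (−0.65 and −0.69). Genes of the replicative helicase, such as Mcm6 at 0.13, and the replication clamp Pcna at −0.08 were not lower to this extent. Summed over the members measured, levels were 12.2 and 11.8 in hetero-KO and 12.4 at both ages in WT.

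Markers of mature granule and pyramidal neurons had no member 2-fold apart in hetero-KO. The median was 0.05 over 21 dentate granule cell markers, −0.03 over 14 CA1 markers, 0.33 over 11 CA2 markers and 0.22 over 15 CA3 markers. Amigo2, an adhesion protein of CA2 that is also a reactive astrocyte gene, differed by 0.70 and Pcp4, a calmodulin-binding peptide of CA2 and thalamus, by −0.75. Bok differed by 0.62 in hetero-KO and −0.04 in WT. Immediate early genes, which neurons switch on with activity, had 18 of 36 higher and a median of 0.00 in hetero-KO; Fos went from 2.44 to 1.54 (−0.67) and in WT differed by −0.57.

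Set side by side, the age differences of the hetero-KO and WT pairs share no array and correlated with r = 0.645 and Spearman's rho = 0.601 over the 16120 genes at a level of 0.2 or more, and with r = 0.438 over 27139 genes measured on all 4 arrays. These are correlations across genes, which are not independent replicates, and the markers of sex, thalamus and striatum above differ between the same arrays. Of the 76 genes at least 2-fold higher in hetero-KO at that level, 31 were also 2-fold higher in WT (40.8% of the hetero-KO genes and 72.1% of the 43 WT genes). Of the 90 lower, 38 were also 2-fold lower in WT (42.2% of the hetero-KO genes and 64.4% of the 59 WT genes), and 3 were 2-fold the other way. The 43 and 59 WT genes are those 2-fold apart among the same 16120 genes. By sign alone, 74 of the 76 were higher in WT, beside 63.9% of all 16120 genes. Of the 90, 76 were lower in WT, beside 36.1% of all. Without the floor on level, the WT pair had 216 genes (0.771%) higher and 231 (0.824%) lower among 28019 measured. The differences spread wider in hetero-KO, with an SD of 0.29 against 0.24 in WT at that level. With 1 array per group, whether this spread or any single gene differs between genotypes was not tested.

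**Figure D4:**
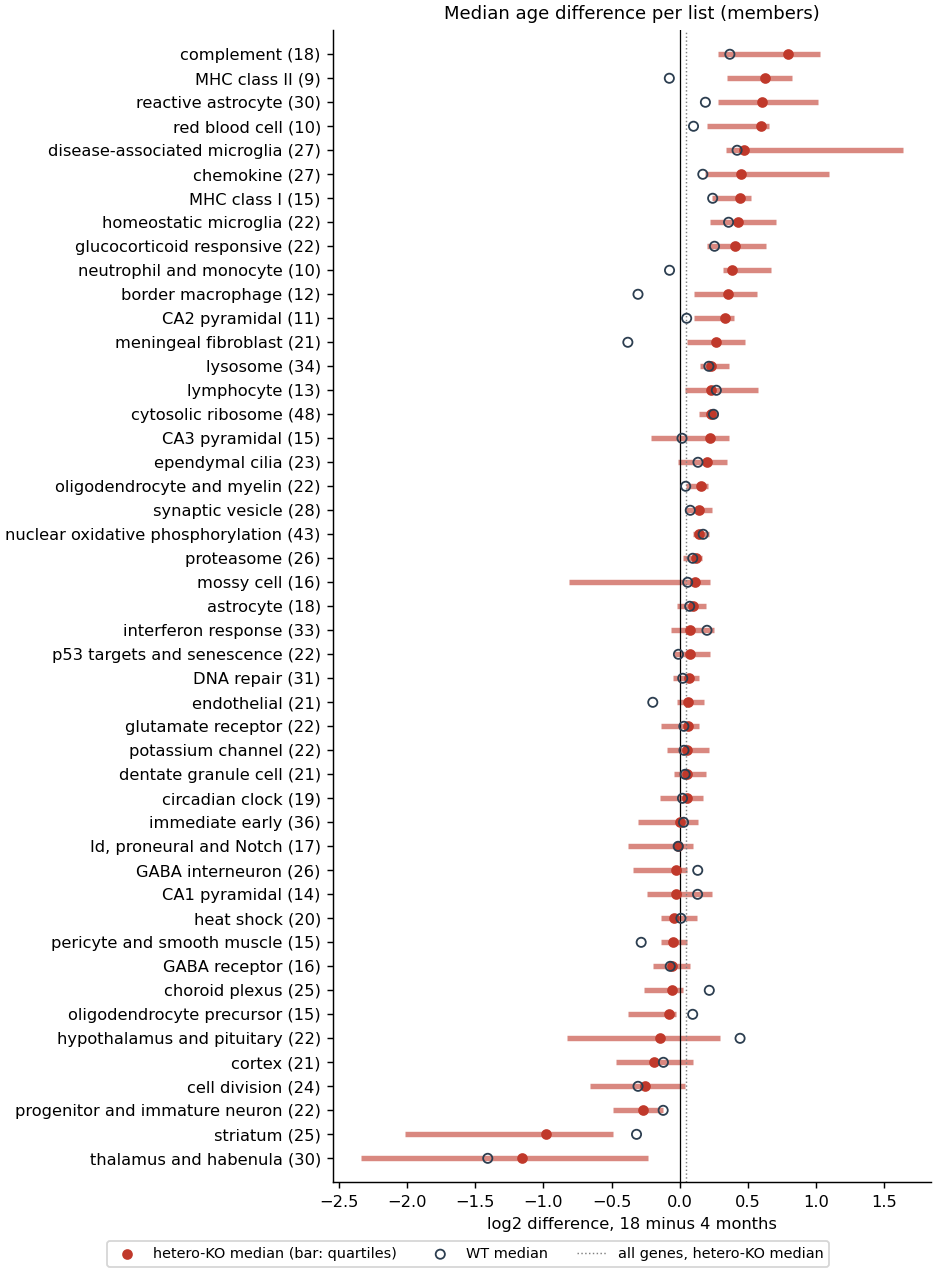
Median log2 age difference (18 minus 4 months, horizontal) of each gene list, with the number of members measured in hetero-KO in parentheses; filled points are hetero-KO, bars its quartiles over members, open circles the WT median and the dotted line the hetero-KO median of all genes (0.05). Complement (0.80), MHC class II (0.62) and reactive astrocyte (0.60) lists lie furthest right in hetero-KO, striatum (−0.98) and thalamus and habenula (−1.16) furthest left.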

How the data were processed

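The authors deposited linear spot intensity for every array. Per the file headers, the scanner software (Agilent Feature Extraction 11.5.1.1, protocol GE1_1105_Oct12) removed spatial trends, subtracted background and gave coordinates in build mm9. The authors' deposited table holds a linear ratio. From each array's 62976 spots, control and outlier spots were left out, log2 processed signal minus its 75th percentile was formed, and spots were averaged per probe. A probe counted as measured where 50% or more of its spots cleared background, and a gene was its probe of highest mean level. Of 56605 probes, 33903 were matched to RefSeq by accession, for names alone. A gene bright on 1 hetero-KO array only got a bound against the higher of the dim level and the lowest level well above background there. A fold of 2 was called; the procedure was tested on simulated data. Alternatives used normexp (limma 3.58.1, R 4.3.3), other scalings, filters, thresholds, the mean of probes and the deposited table.

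The members and lists were chosen with earlier results of these data known. Named genes are Zbtb18; the 15 largest age differences each way among officially named genes at a level of 0.2 or more; the 6 largest bounds each way; the 10 largest differences each way between genotypes in the age difference; and per list the 4 largest and the defining markers. Some genes that this rule names are not reported here. Other named genes were chosen after their values were seen.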

Additional observations from a re-analysis of the deposited data

Results flagged for a closer look

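Among the genes reported here, 4 named by the rule were at least 2-fold apart between ages in opposite directions in the hetero-KO and WT pairs. Prl had an age difference of −2.49 in hetero-KO and 3.50 in WT. Ano2, a calcium-activated chloride channel, had −1.15 and 1.92. Ctxn3, a cortexin family gene, had −1.39 and 1.75, and Ebf3, a transcription factor of the olfactory lineage, −1.07 and 1.43. Ano2 went from 0.0902 to 0.0406 in hetero-KO and from 0.0552 to 0.209 in WT. The mean of its probes gave 1.13 for Ano2 in hetero-KO, so its sign rests on the choice of probe. With 1 array per group the difference between genotypes was not tested.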

How the results depend on the processing

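No paired analysis was possible because each group holds 1 array. The counts of 306 higher and 300 lower genes were 281 to 354 and 289 to 315 with scaling by the median or by the percentile of bright probes, quantile normalization, the mean of a gene's probes, the filter on all 4 arrays and, an alternative chosen after seeing the data, without X and Y genes. They were 90 and 121 with normexp, 1532 and 1163 with no filter on dim probes, 1022 and 831 at 1.5-fold, 52 and 61 at 4-fold, 76 and 90 at a level of 0.2 or more, and 859 and 1275 in the authors' deposited table. The correlation with WT was 0.541 with normexp, 0.239 with no filter and 0.839 in the table. The median of the thalamus and habenula list was −0.94 with the mean of probes. None of the 21 lists with a median beyond 0.2 changed sign on the scanner files, and of 70 named genes at least 2-fold apart Ano2 (1.13) and Ttn (−0.0054) did, with the mean of probes. Sizes of single-gene differences were less stable than signs. Of 143 genes compared, 55 moved by more than the scanner error with normexp. With the mean of probes 33 did so, Ano2 and Ttn aside.

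In the authors' deposited table, 16 of these 21 lists and 40 of these 70 genes took the opposite sign; the cause was not tested. List medians there were −0.28 for complement, −0.18 and −0.32 for homeostatic and disease-associated microglia, −0.37 for border macrophages, −0.17 and −0.50 for MHC classes I and II, −0.38 for reactive astrocytes, −0.22 for lymphocytes, 0.030 for progenitors, −1.21 and −0.44 for CA2 and CA3, −0.59 for meningeal fibroblasts, −0.15 for glucocorticoid-responsive genes, −0.061 for ribosomes, −0.12 for lysosomes and −0.38 for chemokines; striatum stood at −0.13 and red blood cells at 0.011. Complement and microglial genes had −2.0 (C3), −1.37 (C4a), −1.28 (C4b), −0.36 (Cfb), −0.96 (Clec7a), −1.25 (Cst7), −0.94 (Itgax), −0.16 (Lilrb4a), −1.80 (Gpnmb), −0.56 (Gpr84), −0.86 (Grn) and −0.52 (Lyz2). Chemokines had −0.51 (Ccl2), −0.38 (Ccl3), −0.45 (Ccl4), −0.74 (Ccl8), −0.39 (Cxcl1) and 1.44 (Ccl21a). Other immune, glial and blood genes had −2.48 (Serpina3n), −0.31 (Lcn2), −0.53 (Vim), −0.10 (S100a9), −0.58 (Ms4a7), −0.37 (Cd2), −0.56 (Nkg7), −0.47 (Jchain), −1.12 (Klk6) and −0.77 (Plin4). Striatal genes had 0.80 (Adora2a), 0.47 (Drd1) and 0.086 (Ido1). The rest were Avp at −1.18, Avpr1b at −3.00, Dlk1 at −0.83, Ceacam16 at −2.40, Syt10 at −1.08, Ttn at −0.39, Ano2 at 0.037, Ctxn3 at 1.74 and Opn3 at 0.42. Lists with a median within 0.2 on the scanner files are outside these counts, and some stood far apart in the deposited table. Medians there were −4.25 for choroid plexus (−0.06 on the scanner files) and −1.86 for ependymal cilia (0.196). Immediate early genes had 0.98 (−0.0008 on the scanner files) and cortex markers 0.75 (−0.19). Fos had 1.64 there, against −0.67. Signals near background and the lone array of each group limit the precision.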

Other observations

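Genes of translation and respiration shifted together by small amounts. Cytosolic ribosome genes were higher at 18 months for 47 of 48 members in hetero-KO, with a median of 0.23, and for all 48 in WT, with a median of 0.25; under quantile normalization the hetero-KO median was 0.006. Rps25 went from 34.2 to 44.5 in hetero-KO and from 34.4 to 43.4 in WT, and Rpl37 was the member that was lower, at −0.15. Nuclear genes of oxidative phosphorylation were higher for 39 of 43 members, with medians of 0.14 and 0.17; Cox8a, a subunit of cytochrome oxidase, went from 61.6 to 84.9. No member of either list reached 2-fold.

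Oligodendrocyte genes had a median of 0.15 over 22 members, and Klk6, a protease of mature oligodendrocytes, went from 0.322 to 0.746 in hetero-KO (1.21) and from 0.195 to 0.521 in WT (1.42). Precursor markers were lower for 13 of 15 members in hetero-KO (median −0.08) and for 6 of 15 in WT (median 0.09). Gpr17, a receptor of differentiating precursors, went from 6.31 to 3.54 in hetero-KO and from 6.03 to 3.89 in WT. Among lymphocyte genes, 11 of 13 were higher both in hetero-KO (median 0.23) and in WT (median 0.27). Cd2, Nkg7 and Jchain differed by 1.14, 1.03 and 1.04 in hetero-KO, from levels of 0.0107, 0.0179 and 0.0696. In WT they differed by 0.20, 0.87 and 0.98. The GABA interneuron list had a median of −0.03, with Pvalb at −0.47 in both genotypes. Choroid plexus genes were higher for 8 of 25 members in hetero-KO and for 24 of 25 in WT, with medians of −0.06 and 0.22. By size, the leading hetero-KO differences were all lower: Prlr at −0.82, Otx2 at −0.44, Wfdc2 at −0.42 and Calml4 at −0.39. Ttr, the transthyretin gene, had the highest difference of the list, 0.36, with levels of 61.3 and 78.6 in hetero-KO. Synaptic vesicle genes had a median of 0.14 over 28 members in hetero-KO and 0.08 in WT. The largest differences in hetero-KO were those of Syt10 (3.94) and Slc17a6 (−2.78), described above. Unc13c, a priming factor, differed by −1.85 in hetero-KO and −1.93 in WT.

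Some genes were bright on 1 hetero-KO array and not well above background on the other 3. Those with the largest bounds at 18 months were Hoxa2, Olfr384 and Spata16, at least 17.4-fold, 11.4-fold and 9.62-fold higher than at 4 months. At 4 months they were Olfr120, Olfr645, Myzap, Ccdc7b and Prl7a1, at least 22.7-fold, 19.0-fold, 18.9-fold, 16.2-fold and 14.8-fold higher than at 18 months. Even on the array where they cleared background the levels of these named genes were low, from 0.0643 (Spata16) to 0.188 (Olfr120). Other genes with smaller bounds had the same pattern, H3c1 at 18 months and Skint1 at 4 months among them. Genes whose age difference was larger in WT included Lbhd2, with levels of 0.188 and 0.165 in hetero-KO and of 0.315 and 2.83 in WT, and Sln, or sarcolipin, with 0.264 and 0.206 against 0.209 and 1.63. Spaca4 had levels of 0.723 and 0.892 in hetero-KO and of 0.794 and 0.272 in WT. Slc10a4, a vesicular transporter-like protein, differed by −1.66 in hetero-KO and 0.89 in WT. Ttn, the muscle giant titin, differed by 2.20 in hetero-KO and −0.33 in WT, with other probes as low as −0.13.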
